A study of Homo sapiens with 4 samples.

Results

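The 8 genes described here carry the signal of growth factor receptors from the cell membrane to ERK, and their transcript levels were compared between the parental line PC9 and the resistant line PC9OR. They are the RAS genes *NRAS* and *HRAS*, the RAF genes *BRAF* and *ARAF*, the MEK genes *MAP2K1* and *MAP2K2*, and the RAS GTPase-activating protein (GAP) genes *NF1* and *RASA1*. They were found by mapping the Entrez identifiers of the deposited tables to official symbols, and they are 8 of the 16813 genes listed in at least 1 library. PC9 is an EGFR-mutant human lung adenocarcinoma line that the labels give as wild type and as the control. PC9OR is its osimertinib-resistant derivative, also given as wild type, and osimertinib is a kinase inhibitor of mutant EGFR. Each line has 2 biological replicates, 4 libraries in all, grown in the same serum-supplemented medium. The labels name no drug exposure at harvest, and with 1 derived line, resistance and other differences between these cultures cannot be told apart. PC9 replicate 1 held 23201307 expected counts and PC9 replicate 2 held 29062064, while the PC9OR replicates held 31948974 and 32203998.

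RAS proteins are small GTPases that are active while they hold GTP. Exchange factors such as SOS1, brought to an activated receptor by the adaptor GRB2, load them with GTP, and GAPs such as NF1 and RASA1 speed the hydrolysis that turns them off. Active RAS recruits RAF kinases to the membrane, RAF phosphorylates MEK, and MEK phosphorylates ERK. In EGFR-mutant lung adenocarcinoma the mutant receptor feeds this chain, and renewed signalling through it is a known route by which cells escape EGFR inhibitors. The values here are RNA levels, and they do not measure GTP loading, phosphorylation or mutations of these genes.

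The CPM of a gene is its expected count scaled to the library size by the TMM method to a common total, and serves to compare 1 gene between libraries. FPKM values, which also take transcript length into account, serve to compare genes within a library. The log2 fold change, always PC9OR minus PC9, comes from edgeR's quasi-likelihood test, and a gene is said to have risen or fallen where the adjusted p (Benjamini-Hochberg, over 13148 tested genes) was under 0.05. Replicates of PC9 were less alike than those of PC9OR (biological coefficient of variation 0.241 and 0.104), in part along transcript length, and calls are therefore also given with length offsets or a library left out where these change them. All 8 genes passed the filter on low counts. Of them, 3 fell in PC9OR cells (*NF1*, *MAP2K1* and *HRAS*), 0 rose and 5 were not called. Among all tested genes, 20.8% fell and 15.6% rose. At an unadjusted p under 0.05, 4 of the 8 genes were lower and 0 were higher in this test, beside 26.7% and 23.9% of all tested genes. DESeq2's Wald test with an adjusted p under 0.05 also called 4 lower and 0 higher, beside 23% and 18.6%. In bulk RNA, fewer cells with a transcript and less of it per cell cannot be told apart. The median log2 fold change of the 8 genes was -0.57, beside 0.01 for all tested genes. Both PC9OR libraries were below both PC9 libraries for 5 of the 8 genes and above them for 2, beside 38.2% and 39.6% of all tested genes.

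**Figure D1:**
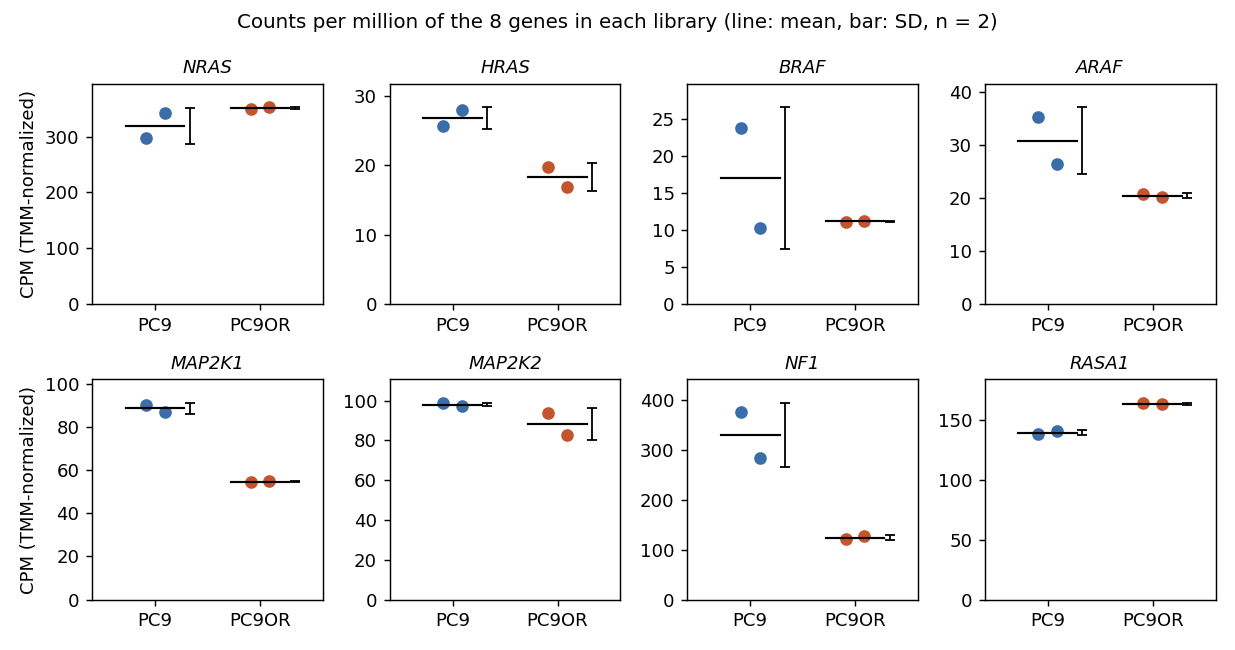
CPM of each of the 8 genes (vertical axis, from 0) in the 2 PC9 and 2 PC9OR libraries, with 1 point per library, a line at the mean and a bar for the SD. The lines stand clearly apart for *NF1*, *MAP2K1* and *HRAS*, whereas the *BRAF* values of PC9OR cells, near 11 CPM, lie between the 2 PC9 libraries.

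*HRAS* was lower in PC9OR cells and *NRAS* was not called. Both encode membrane-anchored RAS GTPases. *HRAS* (chromosome 11, 532242 to 537321 of GRCh37, minus strand) had 25.7 and 27.9 CPM in the PC9 libraries and 19.7 and 16.9 CPM in the PC9OR libraries. The groups did not overlap, and *HRAS* fell by 0.55 on the log2 scale, a 1.46-fold decrease (standard error 0.146, 95% confidence interval -0.92 to -0.18, adjusted p = 0.0401 by edgeR). The call was lost without PC9OR replicate 1 (adjusted p = 0.167), without PC9OR replicate 2 (0.347) and without a filter on low counts (0.0528), by edgeR in each case. *NRAS* (chromosome 1, 115247090 to 115259392, minus strand) had 297 and 342 CPM in PC9 and 350 and 353 CPM in PC9OR cells. The PC9OR values lay just above the higher PC9 value, and the log2 fold change of *NRAS* was 0.14 (standard error 0.119, 95% confidence interval -0.17 to 0.44, adjusted p = 0.394 by edgeR). Without PC9 replicate 2 the log2 fold change of *NRAS* was 0.23, with an adjusted p of 0.0257 in the edgeR fit.

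The *NRAS* and *HRAS* coding sequences are similar, but without long runs of identical bases. Their coding sequences have 189 codons each, and 414 of 567 bases (73%) are identical in the GENCODE transcripts on GRCh37. The longest run of bases that the transcripts share is 14 bases. Per length, *NRAS* was the more abundant of the pair in every library. Its share of the summed FPKM of *NRAS* and *HRAS* was 72.1% and 73.1% in PC9 libraries and 79.6% and 82.1% in PC9OR libraries. The mean share of *NRAS* was 72.6% ± 0.669 (SD, n = 2) for PC9, and for PC9OR it was 80.8% ± 1.71 (SD, n = 2), a difference of 8.26 percentage points. From expected counts, which are not per length, the difference was 2.80 points, so that its size depends on the unit. The groups did not overlap, but with 2 libraries against 2 the exact two-sided permutation test gives p = 0.33, the smallest that this design allows.

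Per length, the RAF genes *ARAF* and *BRAF* were the least abundant of the 8, and neither was called. *ARAF* (chromosome X, 47420604 to 47431307, plus strand) had 35.2 and 26.3 CPM in PC9 and 20.7 and 20.1 CPM in PC9OR cells. Both PC9OR libraries were below both PC9 libraries, and the log2 fold change of *ARAF* was -0.59 (standard error 0.178, 95% confidence interval -1.05 to -0.13, adjusted p = 0.0542 by edgeR). *ARAF* passed the threshold in 6 of 15 alternative fits, among them the one that corrects for transcript length and GC content by smooth offsets per library (log2 fold change -0.51, adjusted p = 0.034 by edgeR) and the one without PC9 replicate 2 (-0.80, adjusted p = 0.00422 by edgeR). Its isoform-weighted transcript length was 2373 and 2277 bases in PC9 and 2143 and 2198 bases in PC9OR libraries, shorter in both PC9OR libraries, from 3 RefSeq transcripts.

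*BRAF* (chromosome 7, 140419127 to 140624729, minus strand) encodes the RAF kinase most often mutated in cancer. It had 23.8 and 10.2 CPM in PC9 and 11.1 and 11.2 CPM in PC9OR cells. The PC9OR libraries were nearly equal and lay between the PC9 libraries, so that the whole difference rested on PC9 replicate 1. The log2 fold change of *BRAF* was -0.60 (standard error 0.408, 95% confidence interval -1.65 to 0.44, adjusted p = 0.283 by edgeR). Without PC9 replicate 1 it was 0.12 (adjusted p = 0.515 by edgeR), and without PC9 replicate 2 it was -1.11 (adjusted p = 0.00331 by edgeR). The gene *NDUFB2*, which encodes a subunit of respiratory complex I, overlaps *BRAF* by 3464 bases on the opposite strand and had 51 and 82.6 CPM in PC9 and 122 and 131 CPM in PC9OR cells. *NDUFB2* rose by a log2 fold change of 0.92 (adjusted p = 0.0391 by edgeR), or 0.30 with offsets for length and GC, and with offsets for length alone it was 0.23 (adjusted p = 0.12 by edgeR). Over the fits that each left out a library, the adjusted p of *NDUFB2* reached 0.104 by edgeR. The kit marks strand, but whether the counting used it is not given in the sources used here, and its part in the *BRAF* values was not tested.

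*BRAF* held 34.9% and 22.7% of the summed FPKM of *BRAF* and *ARAF* in PC9 libraries and 27.7% and 28.9% in PC9OR libraries. The PC9OR shares fell between the PC9 shares, and the means differed by -0.52 percentage points (28.8% ± 8.62 against 28.3% ± 0.827, SD, n = 2 each, exact two-sided permutation p = 1). Leaving out PC9 replicate 1 made this difference 5.57 percentage points and leaving out PC9 replicate 2 made it -6.61. *ARAF* was thus the more abundant of this pair per length in every library, at 11.1 and 8.46 FPKM in PC9 and 7.09 and 6.57 FPKM in PC9OR cells, beside 5.93, 2.49, 2.72 and 2.67 FPKM for *BRAF* in the same order.

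Of the MEK kinases, *MAP2K1* fell and *MAP2K2* did not pass the test. Both phosphorylate ERK. *MAP2K1* (chromosome 15, 66679175 to 66783994, plus strand) had 90.3 and 86.8 CPM in PC9 and 54.4 and 54.7 CPM in PC9OR cells. Replicates differed by a few CPM at most, and *MAP2K1* fell by 0.70 on the log2 scale, a 1.62-fold decrease (standard error 0.105, 95% confidence interval -0.97 to -0.43, adjusted p = 0.0114 by edgeR). Its fold change with offsets for length and GC content was -0.56 (adjusted p = 0.00584 by edgeR). The call was lost without PC9OR replicate 1 (adjusted p = 0.139 by edgeR) and without PC9OR replicate 2 (adjusted p = 0.143 by edgeR), although the log2 fold change of *MAP2K1* stayed between -0.74 and -0.68 whichever library was left out. *MAP2K2* (chromosome 19, 4090319 to 4124119, minus strand) had 98.5 and 97.3 CPM in PC9 and 93.7 and 82.5 CPM in PC9OR cells. The groups were apart by less than the gap between the PC9OR replicates, and the log2 fold change of *MAP2K2* was -0.15 (standard error 0.116, 95% confidence interval -0.45 to 0.15, adjusted p = 0.337 by edgeR). With offsets for length and GC content it was -0.29 (adjusted p = 0.0348 by edgeR). *MAP2K2* passed the threshold in only this 1 of 15 alternative fits. Its adjusted p was 0.0668 with offsets for length alone, and 0.0613 with both offsets and the replicate number as a further term (edgeR).

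The *MAP2K1* share of the MEK transcripts was lower in both PC9OR libraries. *MAP2K1* held 37.4% and 36.8% of the summed FPKM of both MEK genes in PC9 libraries and 27.4% and 30.1% in PC9OR libraries. The means were 37.1% ± 0.463 (SD, n = 2) and 28.8% ± 1.92 (SD, n = 2), a difference of -8.34 percentage points. As for the RAS pair, the groups did not overlap and the exact two-sided permutation test gives p = 0.33, its smallest value. FPKM shares are not corrected for the trend along length and GC content, and the log2 fold changes of *MAP2K1* and *MAP2K2* were -0.70 and -0.15 without offsets and -0.56 and -0.29 with them. *MAP2K2* was the more abundant MEK transcript per length in every library. Reads of both MEK genes may be split with similar sequences, since 8.15% of the 31-base words in *MAP2K1* transcripts and 23.4% of those in *MAP2K2* transcripts occur in transcripts of other genes, mostly the pseudogene *MAP2K1P1* (7.9%) and *ENSG00000230626* (23.4%). *SNAPC5*, which overlaps *MAP2K1* on the opposite strand, had 9.98 and 14.1 CPM in PC9 and 15.4 and 17.1 CPM in PC9OR libraries.

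**Figure D2:**
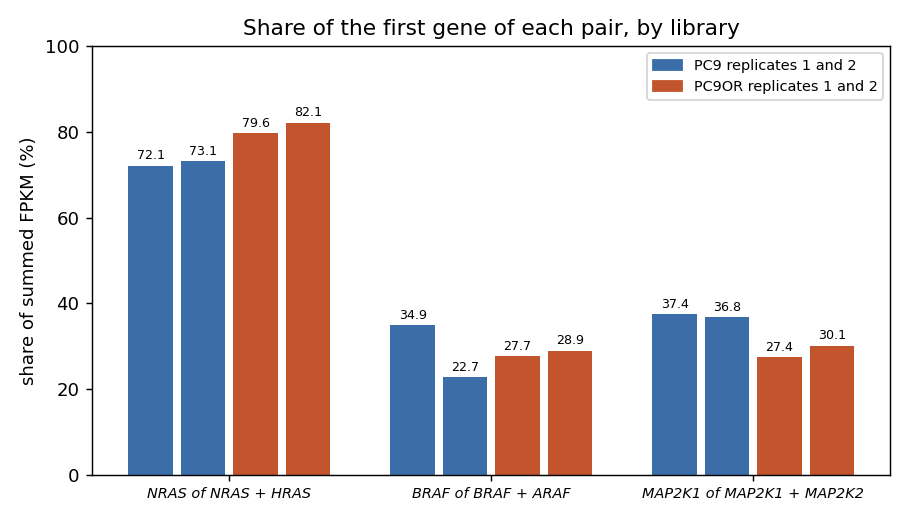
Share (%) of *NRAS* in the summed FPKM of *NRAS* and *HRAS*, of *BRAF* in *BRAF* and *ARAF*, and of *MAP2K1* in *MAP2K1* and *MAP2K2*, 1 bar per library. The *NRAS* share is higher (79.6% and 82.1% against 72.1% and 73.1%) and the *MAP2K1* share lower (27.4% and 30.1% against 37.4% and 36.8%) in both PC9OR libraries, while the *BRAF* shares overlap.

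Without offsets, *NF1* had the largest log2 fold change of the 8 genes, but with offsets for length and GC content those of *HRAS* (-0.91) and *BRAF* (-0.71, not called) were larger than that of *NF1* (-0.58). *NF1* encodes neurofibromin, a RAS GAP whose loss raises RAS signalling and causes neurofibromatosis. *NF1* (chromosome 17, 29421945 to 29709134, plus strand) had 376 and 285 CPM in PC9 and 121 and 128 CPM in PC9OR cells. The lower PC9 library stood far above both PC9OR libraries. *NF1* fell by 1.41 on the log2 scale, a 2.65-fold decrease (standard error 0.164, 95% confidence interval -1.83 to -0.99, adjusted p = 0.00728 by edgeR). Offsets for transcript length and GC content reduced the decrease to 0.58 on the log2 scale, or 1.5-fold (adjusted p = 0.00584 by edgeR), and offsets for length alone to 0.49 (adjusted p = 0.0126 by edgeR). *NF1* was called lower in 15 of 15 alternative fits, with a log2 fold change from -1.61 to -1.20 over the fits that each left out a library. The genes *EVI2A*, *EVI2B* and *OMG*, which lie within *NF1* on the opposite strand, were near 0 in every library, with *EVI2B* the most abundant at 0.597, 0.173, 0.125 and 0.125 CPM. The *NF1* transcripts share 5.76% of their 31-base words with other genes, 2.56% with the pseudogene *NF1P1*.

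*RASA1*, which encodes the GAP p120RasGAP, had a small difference the other way. *RASA1* (chromosome 5, 86563700 to 86687748, plus strand) had 138 and 141 CPM in PC9 and 164 and 163 CPM in PC9OR cells. The PC9OR values were above the PC9 values, with close replicates. The log2 fold change of *RASA1* was 0.23 (standard error 0.0988, 95% confidence interval -0.02 to 0.48, adjusted p = 0.122 by edgeR). It passed the threshold in 3 of 15 alternatives, without PC9 replicate 1 (adjusted p = 0.0481), without PC9 replicate 2 (0.0317) and with offsets for length alone (0.0198), all by edgeR. Of the 31-base words in *RASA1* transcripts, 0 of 5050 occurred in transcripts of other genes. The partly overlapping *CCNH* on the opposite strand, which encodes cyclin H, had 36.9 and 46.4 CPM in PC9 and 52.2 and 57.8 CPM in PC9OR cells.

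Per length, *NRAS* had the highest level and *BRAF* the lowest in both lines. In PC9 cells the mean FPKM ran from 51.3 for *NRAS* through 42.5 for *MAP2K2*, 25.1 for *MAP2K1*, 23.6 for *RASA1*, 19.9 for *NF1*, 19.4 for *HRAS* and 9.76 for *ARAF* to 4.21 for *BRAF*. The ranges of the replicates overlapped for the neighbours *NF1* and *HRAS* and were apart for all other neighbours. In PC9OR cells the mean FPKM was 55.1 for *NRAS*, 37.6 for *MAP2K2*, 26.9 for *RASA1*, 15.1 for *MAP2K1*, 13.1 for *HRAS*, 7.46 for *NF1*, 6.83 for *ARAF* and 2.7 for *BRAF*, and the ranges of all neighbours were apart. *RASA1* and *NF1*, the GAP transcripts, were at 23.4 and 23.7 against 22.8 and 17 FPKM in PC9 libraries, and at 27.3 and 26.6 against 7.27 and 7.65 FPKM in PC9OR libraries. *RASA1* was above *NF1* in every library of both lines. The FPKM values carry no offsets, with which *NF1* decreased 1.5-fold instead of 2.65-fold.

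The libraries differed in how reads were spread over long and short transcripts, and the 8 genes lie at different places along that trend. Across 9417 genes above 3 on the log2 CPM scale, which are not independent replicates, the PC9OR minus PC9 difference had a Spearman correlation of -0.46 with transcript length. The difference between PC9 replicates 2 and 1 had a correlation of -0.52 with length, and that between the PC9OR replicates -0.01. With the tested genes in 10 bins of equal size by length, the median log2 fold change ran from 0.53 in the bin of the shortest to -0.58 in the bin of the longest. *NF1*, with transcripts of 11324 to 11709 bases by library, was in the longest bin, and its log2 CPM differed by -0.397 between PC9 replicates 2 and 1. *HRAS*, with 1093 to 1100 bases, was in the shortest bin, where the typical gene was higher in PC9OR cells. With offsets for length and GC content *HRAS* fell by 0.91 on the log2 scale (adjusted p = 0.00404 by edgeR). *NRAS* and *RASA1*, both in bin 8 from the shortest, had log2 fold changes of 0.11 and 0.19 with the offsets, beside 0.14 and 0.23 without them. With the offsets, 5 of the 8 genes were called lower (*NF1*, *MAP2K1*, *HRAS*, *ARAF* and *MAP2K2*) and 0 higher, beside 20.2% and 22.9% of all tested genes.

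**Figure D3:**
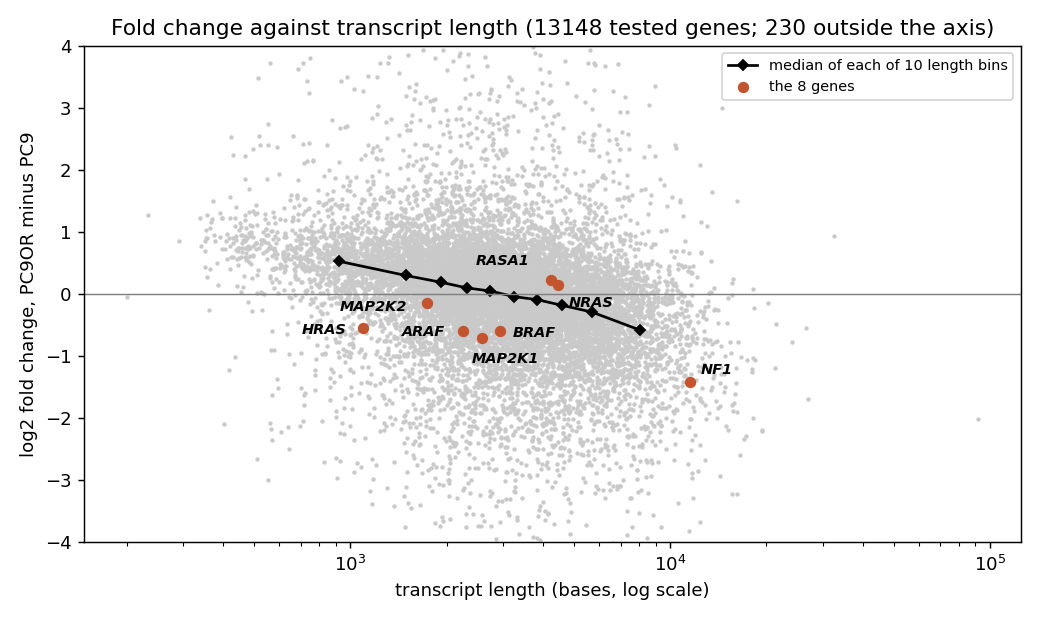
Log2 fold change (PC9OR minus PC9) against transcript length in bases (log scale) for the tested genes (grey), with the median of each of 10 length bins (black) and the 8 genes (orange). *NF1* lies below the median of the longest bin (-0.58), and *HRAS* lies below the median of the shortest bin (0.53).

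**Figure D4:**
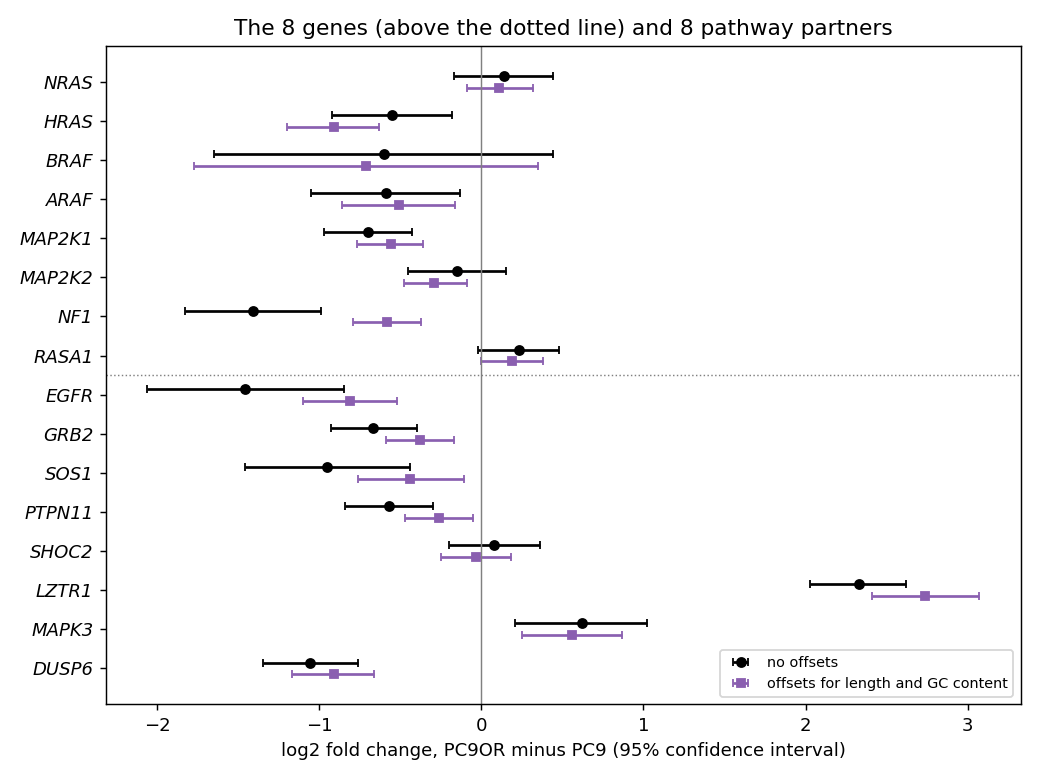
Log2 fold change (PC9OR minus PC9) with its 95% confidence interval for the 8 genes and 8 pathway partners, without offsets (black circles) and under offsets for length and GC content (purple squares). *NF1* moves from -1.41 to -0.58 and *HRAS* from -0.55 to -0.91, and both stay below 0.

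The genes around each of the 8 on its chromosome were also compared, with up to 15 tested genes on each side. The median log2 fold change of those neighbours was -0.14 for *NF1*, 0.14 for *MAP2K1*, -0.08 for *ARAF*, -0.03 for *BRAF*, -0.16 for *NRAS*, 0.11 for *MAP2K2* and 0.35 for *RASA1*. The log2 fold changes of *NF1* (-1.41) and *MAP2K1* (-0.70) were below these medians. With the offsets *NF1* was at -0.58 beside a neighbour median of 0.00, *MAP2K1* at -0.56 beside 0.17, and *RASA1* at 0.19 beside 0.11. Only medians were compared. *HRAS* (-0.55), near the end of chromosome 11, was close to its neighbours, whose median was -0.41 for the 12 tested genes to its left and -0.49 for the 15 to its right. With the offsets the neighbours of *HRAS* had a median of -0.40, against -0.91 for *HRAS* itself.

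The promoters of the genes that fell are shown, since these genes moved in the same direction. Each is the 250 bases before the RefSeq start site on GRCh38.p14, read along the gene's strand, with matches to motif letters in capitals: the cAMP response element TGACGTCA, the ETS core CCGGAA, the GC box GGGCGG, the CCAAT box and the AP-1 site TGANTCA, each searched on both strands. No printed matches overlap each other.
NF1 chr17:31094727-31094976, plus strand: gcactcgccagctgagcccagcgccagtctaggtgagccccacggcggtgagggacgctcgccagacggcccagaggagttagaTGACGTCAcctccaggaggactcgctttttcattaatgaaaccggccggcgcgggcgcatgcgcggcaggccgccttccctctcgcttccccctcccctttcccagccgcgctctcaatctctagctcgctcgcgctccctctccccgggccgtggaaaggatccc
MAP2K1 chr15:66386662-66386911, plus strand: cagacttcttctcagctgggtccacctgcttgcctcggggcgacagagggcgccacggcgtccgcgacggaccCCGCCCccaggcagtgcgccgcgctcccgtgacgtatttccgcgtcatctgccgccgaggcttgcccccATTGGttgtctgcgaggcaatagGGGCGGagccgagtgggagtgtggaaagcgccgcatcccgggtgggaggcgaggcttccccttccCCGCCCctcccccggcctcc
HRAS chr11:535577-535826, minus strand: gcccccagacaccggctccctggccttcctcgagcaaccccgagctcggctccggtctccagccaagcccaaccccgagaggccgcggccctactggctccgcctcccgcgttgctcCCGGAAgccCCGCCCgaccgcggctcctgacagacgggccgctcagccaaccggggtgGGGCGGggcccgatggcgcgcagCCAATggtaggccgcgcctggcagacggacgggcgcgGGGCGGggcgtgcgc
The *NF1* window holds 1 cAMP response element, found in 1.65% of 35116 promoters of this length, and no match to the other letters. The *MAP2K1* window shown holds 3 GC boxes and 1 CCAAT box, while the window of another RefSeq start site of *MAP2K1* (chr15:66401629-66401878) holds 0 matches to these motifs. The *HRAS* window holds 3 GC boxes, 1 CCAAT box and 1 ETS core. GC boxes were found in 42.6% of all promoters, CCAAT boxes in 32%, ETS cores in 14.5% and AP-1 sites in 6.57%. No motif among these 5 was found in all of the windows shown. A match to these letters is a description of the sequence and shows no binding.

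By the likeness of their profiles over the 4 libraries, 3 genes were closest to *NF1* and 3 to *RASA1*. The measure is the root mean square distance between log2 CPM values centred on their mean. Because it uses the same 4 libraries, close fold changes follow from the choice and are no separate result. *NF1* was closest to *FCHSD2* (0.0229), *DNMT3B* (0.0275) and *BMPR2* (0.0302), whose log2 fold changes were -1.37, -1.41 and -1.39. *RASA1* was closest to *CSTF1* (0.00533), *NSL1* (0.00705) and *EARS2* (0.00806), whose log2 fold changes were 0.22, 0.23 and 0.24.

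Upstream of RAS, *EGFR*, *GRB2*, *SOS1* and *PTPN11* fell in PC9OR cells. *EGFR*, the receptor, had 1148 and 727 CPM in PC9 and 355 and 329 CPM in PC9OR cells, and fell by 1.46 on the log2 scale (adjusted p = 0.0132 by edgeR), or by 0.81 with offsets for length and GC content. *GRB2*, the adaptor that brings SOS to the receptor, fell by 0.67, and by 0.38 with the offsets (adjusted p = 0.0119 and 0.0181 by edgeR). *SOS1*, the exchange factor, had 104 and 73.7 CPM in PC9 and 42.4 and 49.4 CPM in PC9OR cells and fell by 0.95 (adjusted p = 0.0231 by edgeR), or by 0.44 with the offsets, while with offsets for length alone its log2 fold change was -0.30 (adjusted p = 0.109 by edgeR). Others that act at this step were not called, among them, named after their values were seen, the exchange factor *SOS2* (-0.03) and the adaptor *SHC1* (-0.09), whose log2 fold changes turned to 0.17 and 0.26 under the offsets for both length and GC content. *PTPN11*, the phosphatase SHP2 that acts between receptors and RAS, fell by 0.57 (adjusted p = 0.0171 by edgeR), and with the offsets its log2 fold change was -0.26 (adjusted p = 0.0527 by edgeR). *EGFR* kept its call with each library left out. The calls of *GRB2*, *SOS1* and *PTPN11* were lost without PC9OR replicate 1 (adjusted p = 0.141, 0.112 and 0.242 by edgeR) and without PC9OR replicate 2 (adjusted p = 0.171, 0.057 and 0.19 by edgeR).

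Of 13 receptor adaptors, 12 were tested, 2 rose and 6 fell, with a median log2 fold change of -0.38. Among all tested genes 15.6% rose and 20.8% fell. With the offsets 3 adaptors rose and 4 fell, beside 22.9% and 20.2% of all tested genes, with a median of -0.18. Those that fell include, beside *GRB2* and *PTPN11*, the docking proteins *GAB2* (-1.45, or -0.78 with offsets for length and GC content), *FRS2* (-1.15) and *IRS1* (-1.14). *IRS1* had a log2 fold change of -0.22 with the offsets (adjusted p = 0.0881 by edgeR). Those that rose were *CRKL* (2.59) and *SHC3*, at 1.42, or 2.41 with the offsets. *IRS1* lost its call under no left-out library, and neither did *GAB2*, *FRS2*, *CRKL* or *SHC3*. Of 8 RAS exchange factors, 5 were tested, 0 rose and 2 fell, *SOS1* and *RASGRP1* (-1.30), beside the same 15.6% and 20.8%. The median of the tested factors was -0.41, or -0.30 with the offsets. *RASGRP1* had an adjusted p of 0.115 without PC9OR replicate 1 and 0.111 without PC9OR replicate 2 in the edgeR fits. 

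Around RAS itself, the related GTPases were also counted, beside 15.6% of all tested genes that rose and 20.8% that fell. Under offsets for length and GC content these shares were 22.9% and 20.2%. Of 10 RAS-related small GTPases, 9 were tested, 2 rose and 0 fell, with a median log2 fold change of 0.00 beside 0.01 for all tested genes. With offsets for length and GC content 2 rose and 2 fell, with a median of -0.09, and the genes that fell were *RAP1B* (-0.73, adjusted p = 0.00373 by edgeR) and *RALA* (-0.54, adjusted p = 0.011 by edgeR), named after their values were seen. *MRAS* had only 0.128 and 0.139 CPM, or 3 and 4 counts, in PC9 and 1.09 and 0.907 CPM in PC9OR cells (log2 fold change 2.86, adjusted p = 0.0161 by edgeR), and *RALB*, a RAS-related GTPase downstream of RAS, had a log2 fold change of 0.70 (adjusted p = 0.0114 by edgeR). The fold change of *MRAS* rests on these few counts, and on the log2(FPKM + 0.1) scale its difference was 1.11 (adjusted p = 0.0235 by limma), and on the log2(FPKM + 1) scale 0.19 (adjusted p = 0.054 by limma). Both calls were lost without PC9OR replicate 1 (adjusted p = 0.136 for *MRAS* and 0.113 for *RALB* by edgeR) and without PC9OR replicate 2 (adjusted p = 0.0933 and 0.122 by edgeR). The list of other RAS GAPs also holds *IQGAP1*, a scaffold with a GAP-related domain but no RAS GAP activity, and was therefore counted without it, a choice made after seeing the data. Of the 8 GAPs left, 7 were tested, 1 rose and 3 fell, with a median log2 fold change of -0.61, and with the offsets 2 rose and 2 fell, with a median of 0.05. With *IQGAP1* the medians were -0.37 and 0.19, and 3 genes rose with the offsets, *IQGAP1* among them (0.36, adjusted p = 0.0145 by edgeR). *RASAL1* (-1.23), *RASAL2* (-1.07) and *RASA2* (-1.05) fell and *RASA4* rose (1.53). *RASAL2* had a log2 fold change of -0.34 with the offsets (adjusted p = 0.0509 by edgeR). Without PC9OR replicate 1 the adjusted p was 0.0882 for *RASAL1*, 0.0657 for *RASAL2* and 0.0897 for *RASA4*, and without PC9OR replicate 2 it was 0.103 for *RASAL1*, 0.141 for *RASA4* and 0.0558 for *RASA2* (edgeR).

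Of 10 genes for RAS degradation or inhibition of RAS and RAF, 9 were tested, 2 rose and 3 fell, with a median of 0.00. Among all tested genes 15.6% rose and 20.8% fell. With the offsets 3 of these genes rose and 2 fell, beside 22.9% and 20.2% of all tested genes. Their median was then 0.31, beside 0.05 for all tested genes. *LZTR1*, the adaptor that brings RAS proteins to the CUL3 ubiquitin ligase, had 24.2 and 23.6 CPM in PC9 and 125 and 115 CPM in PC9OR cells and rose 5.02-fold (log2 fold change 2.33, adjusted p = 0.00249 by edgeR). *LZTR1* and *CRKL* are on chromosome 22, and their up to 15 tested neighbours on each side had median log2 fold changes of 2.47 and 2.37. The sides differed, with medians of 0.74 to the left and 2.82 to the right of *LZTR1*, and 0.15 to the left and 2.82 to the right of *CRKL*. *CUL3* fell by 0.38 (adjusted p = 0.0443 by edgeR), but with offsets for length its log2 fold change was 0.08 (adjusted p = 0.584 by edgeR). *PEBP1*, which binds RAF and blocks its action on MEK, rose (0.74). *SPRED2*, which brings NF1 to the membrane, fell (-1.31), as did *RASSF1* (-0.97), whose product binds active RAS. Without PC9OR replicate 1 the adjusted p was 0.115 for *PEBP1*, 0.128 for *RASSF1* and 0.463 for *CUL3*, and without PC9OR replicate 2 it was 0.152 for *PEBP1*, 0.134 for *RASSF1*, 0.349 for *CUL3* and 0.0508 for *SPRED2* (edgeR).

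Scaffolds and RAF regulators were set beside the same shares of all tested genes, 15.6% that rose and 20.8% that fell. Under offsets for length and GC content these shares were 22.9% and 20.2%. Of 16 genes, 15 were tested, 2 rose and 2 fell, with a median log2 fold change of 0.08. With the offsets 2 rose and 3 fell, and the median was -0.03. *PAK1* (0.58), a kinase that phosphorylates RAF and MEK, and *CDC37* (0.55), the co-chaperone that delivers kinases such as RAF to HSP90, rose. The scaffolds *KSR2* (-2.34) and *CNKSR1* (-1.43) fell. *KSR2* had 7.25 and 3.4 CPM in PC9 and 0.531 and 1.56 CPM in PC9OR cells. Its log2 fold change was -0.88 with the offsets (adjusted p = 0.206 by edgeR), and ran from -3.31 to -1.70 with a library left out. On the log2(FPKM + 0.1) scale the difference of *KSR2* was -1.16 (adjusted p = 0.0569 by limma). On the log2(FPKM + 1) scale it was -0.23 (adjusted p = 0.0955 by limma). *SHOC2*, part of the phosphatase complex that activates RAF, had a log2 fold change of 0.08 (adjusted p = 0.594 by edgeR), which was -0.03 with offsets for length and GC content. Without PC9OR replicate 1 the adjusted p was 0.189 for *PAK1*, 0.217 for *CDC37* and 0.0968 for *KSR2*. Without PC9OR replicate 2 it was 0.203 for *PAK1*, 0.211 for *CDC37* and 0.103 for *CNKSR1*, and without PC9 replicate 1 it was 0.105 for *KSR2* (edgeR).

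Of 10 genes that attach lipids to RAS proteins or move them to the membrane, 10 were tested, 3 rose and 0 fell. Among all tested genes 15.6% rose and 20.8% fell. The median of the 10 genes was 0.43. *PGGT1B* (0.73), a subunit of a prenyltransferase, *ICMT* (0.48), which methylates prenylated RAS proteins, and *LYPLA2* (0.46), a thioesterase that removes palmitate, rose. With the offsets the median of the 10 genes was 0.15, beside 0.05 for all tested genes. Of the 10, 3 then rose and 1 fell, beside 22.9% and 20.2% of all tested genes. With offsets for length alone *LYPLA2* had a log2 fold change of 0.23 (adjusted p = 0.223 by edgeR). Without PC9OR replicate 1 the adjusted p was 0.11 for *PGGT1B*, 0.247 for *ICMT* and 0.317 for *LYPLA2*, and without PC9OR replicate 2 it was 0.16, 0.294 and 0.252 (edgeR).

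Below MEK, *MAPK3* was higher in PC9OR cells and several kinases that ERK activates were lower. *MAPK3*, which encodes ERK1, had 21.1 and 17.9 CPM in PC9 and 32 and 27.6 CPM in PC9OR cells (log2 fold change 0.62, adjusted p = 0.0364 by edgeR). The call of *MAPK3* was lost without PC9OR replicate 1 (adjusted p = 0.265 by edgeR), without PC9OR replicate 2 (adjusted p = 0.122 by edgeR) and with offsets for length alone (log2 fold change 0.46, adjusted p = 0.0791 by edgeR). Of 6 genes for ERK and ERK substrate kinases, 6 were tested, 1 rose (*MAPK3*) and 3 fell, with a median of -0.61. Among all tested genes 15.6% rose and 20.8% fell. *RPS6KA1* (-0.34, adjusted p = 0.147 by edgeR) and *MKNK2* (-0.19, adjusted p = 0.45 by edgeR), named after their values were seen, were not called. Under offsets for length and GC content they were at -0.04 and -0.10. *RPS6KA2*, which encodes the ribosomal S6 kinase RSK3, had 81.9 and 58 CPM in PC9 and 3.47 and 2.34 CPM in PC9OR cells and fell 24-fold (log2 fold change -4.59, adjusted p = 0.00351 by edgeR), with -3.94 on the log2 scale with the offsets. *RPS6KA3*, which encodes RSK2, fell (-1.14), and so did *MKNK1* (-0.88), a kinase of the translation factor eIF4E. With the offsets *RPS6KA3* was at -0.74 and *MKNK1* at -0.71. *MKNK1* had an adjusted p of 0.0669 without PC9OR replicate 1 and 0.0961 without PC9OR replicate 2 (edgeR). Of 5 other MAP2K genes, 1 rose and 1 fell, beside the same shares, with a median of -0.10, which turned to 0.10 with the offsets. Both encode kinases of p38. *MAP2K6* rose (1.48) and *MAP2K3* fell, from 90.8 and 54.6 CPM in PC9 to 16.6 and 19.1 CPM in PC9OR cells (log2 fold change -2.03, adjusted p = 0.00934 by edgeR).

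Genes whose transcription follows ERK activity were also measured. Of 15 such genes, 15 were tested, 1 rose and 5 fell, beside 15.6% and 20.8% of all tested genes. Their median log2 fold change was -0.33. Both PC9OR libraries were below both PC9 libraries for 12 of them and above for 2, beside 38.2% and 39.6% of all tested genes. With the offsets 1 rose and 6 fell, beside 22.9% and 20.2% of all tested genes, with a median of -0.32. *DUSP6*, the phosphatase that turns ERK off, had 296 and 335 CPM in PC9 and 151 and 152 CPM in PC9OR cells and fell by 1.06 on the log2 scale (adjusted p = 0.00659 by edgeR). *PHLDA1* fell from 343 and 323 CPM to 124 and 114 CPM (log2 fold change -1.48, adjusted p = 0.00434 by edgeR). *FOSL1*, which encodes a subunit of AP-1, fell from 88.4 and 41 CPM to 16.9 and 12.7 CPM (log2 fold change -2.12, adjusted p = 0.0179 by edgeR). With a library left out, the log2 fold change of *FOSL1* ran from -2.59 to -1.48. *SPRY4*, an inhibitor of receptor signalling, fell (-1.57). *EPHA4*, a receptor tyrosine kinase, rose from 16.7 and 17.2 CPM to 79.9 and 70.1 CPM (log2 fold change 2.15, adjusted p = 0.00327 by edgeR). *DUSP6*, *PHLDA1*, *FOSL1*, *SPRY4* and *EPHA4* were called in 15 of 15 alternatives each.

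**Figure D5:**
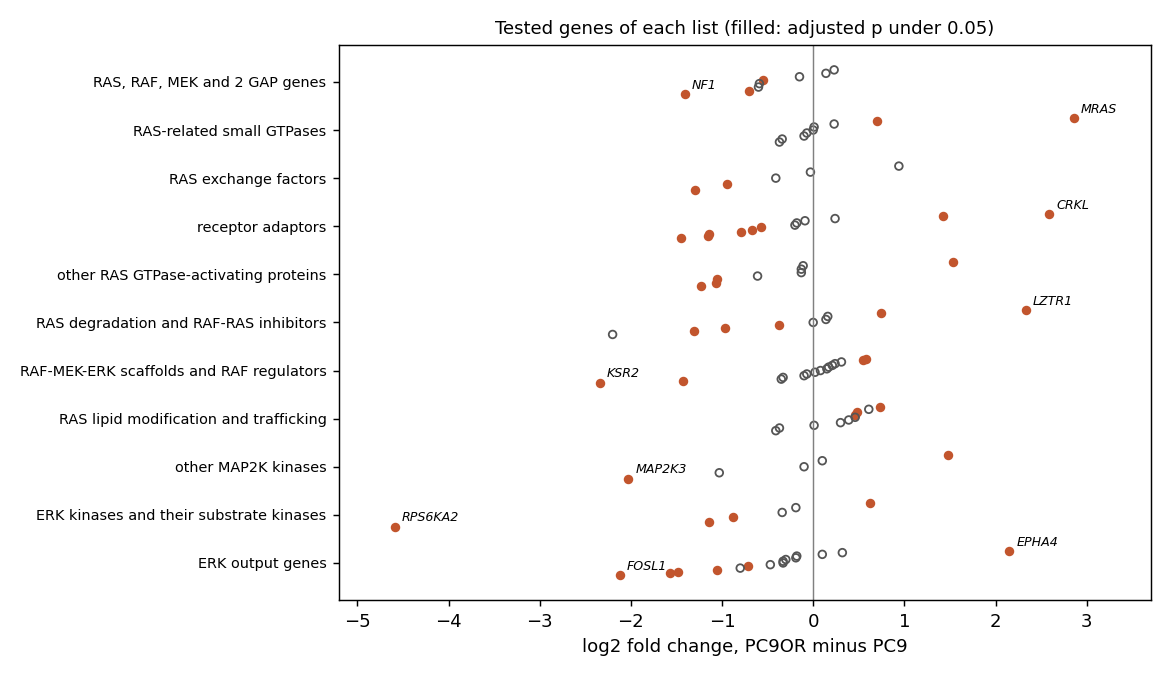
Log2 fold change (PC9OR minus PC9) of the tested genes of each list, 1 point per gene, filled where the adjusted p was under 0.05. The lists other than the first show 94 tested genes, of which 15 rose and 25 fell, beside 15.6% and 20.8% of all tested genes. *RPS6KA2* is the lowest at -4.59.

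The labelled cell type was checked against marker genes. Of 9 epithelial and lung adenocarcinoma markers, 7 were above 1 FPKM in some library, and their summed level was 2730 and 3084 FPKM in PC9 and 5761 and 5548 FPKM in PC9OR cells. The most abundant was the keratin gene *KRT18*, with 752, 859, 1762 and 1716 FPKM in the same order. The keratins carried this sum, whereas the adhesion gene *CDH1* fell (log2 fold change -1.46, adjusted p = 0.00814 by edgeR) and *EPCAM* had a log2 fold change of -0.01 (adjusted p = 0.931 by edgeR). The lung lineage factor *NKX2-1* and the lung protease gene *NAPSA* were near 0, with at most 12 and 11 counts in a library, so these lung markers were at or near 0 in both lines. Of 4 leukocyte markers only *CD68* was above 1 FPKM, and *PTPRC* and *CD3E* had at most 3 counts in every library. The summed leukocyte markers were 6.38 and 5.12 FPKM in PC9 and 2.75 and 2.49 FPKM in PC9OR libraries. Of 3 endothelial markers only *CDH5* was above 1 FPKM, at 6.08 and 4.1 FPKM in PC9 and 0.86 and 0.8 FPKM in PC9OR libraries, and their sum was 6.47, 4.1, 0.86 and 0.88 FPKM. Further, 0 of 5 fibroblast markers were above 1 FPKM, with sums of 0.25, 0.23, 0.18 and 0.21 FPKM. The epithelial, leukocyte and endothelial sums differed between the lines, and their part in the results on RAS, RAF and MEK genes was not tested.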

How the data were processed

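RNA from the 2 PC9 and 2 PC9OR cultures was prepared with a TruSeq Stranded kit and sequenced at 100 bases on a HiSeq. The study's methods name SOAP for read filtering, and the submitters' processing notes name GRCh37, Bowtie2 2.2.5 and RSEM 1.2.12. The authors deposited, per gene and library, an expected count (not normalized), an FPKM value (per length and per library size) and an isoform-weighted length of the transcript. Genes absent from a table were set to 0.

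After rounding, expected counts entered edgeR 4.0.16 under R 4.3.3 (TMM, filterByExpr, glmQLFit, glmQLFTest), group as the only term, with Benjamini-Hochberg adjustment over 13148 genes. The study's DEGseq pools replicates and was not used. A count of 3, taken as the floor, is 0.0932 to 0.129 CPM and covers counting error only. Offsets for transcript length and GC content were smooth curves per library (mgcv 1.9.3), with GC content known for 97.9% of tested genes and set to the median for the other 274. FPKM entered limma 3.58.1 as log2(FPKM + 1) and log2(FPKM + 0.1), where the deposited values give log2 differences that understate changes of low genes. DESeq2 1.42.0 gave size factors and a Wald test. Other alternatives were library totals, no filter, at least 10 counts in every library, the replicate number as a block, each library left out, and a stricter threshold. Positions and GC content come from GENCODE lifted to GRCh37, and promoters from RefSeq on GRCh38.p14, where all 8 genes matched. The tests were run first on simulated data to check the code. The simulated spread was equal in all libraries, unlike that of these replicates (0.241 for PC9 and 0.104 for PC9OR). That run therefore gives no error rates for these libraries.

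The 8 genes, the lists and the tests were chosen with earlier results of these data known. Named genes are the 8, 8 fixed partners (*EGFR*, *GRB2*, *SOS1*, *PTPN11*, *SHOC2*, *LZTR1*, *MAPK3* and *DUSP6*), up to 3 genes with the largest change in each direction among the called genes of each of 10 lists, and the 3 genes closest in profile to the highest and lowest of the 8. Overlapping genes and cell markers are also named. Results for some single genes are not reported here. Nothing says that the replicates came from separate thaws or days, so p-values measure the spread between these libraries.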

Additional observations from a re-analysis of the deposited data

How the results depend on the processing

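Of the log2 fold changes of the 8 genes under 15 alternatives, 102 kept their direction and side of the threshold, 12 kept their direction and passed it (*BRAF* among them, at -1.11 without PC9 replicate 2), 5 kept their direction and fell short of it, and 1 reversed (*BRAF*, 0.12 without PC9 replicate 1). Among the partners and list genes named by the fixed rule, 532 kept both, 64 fell short of the threshold and 3 reversed: *SHOC2* at -0.03 with offsets for length and GC content and at -0.03 with the same offsets and the replicate block, and *CUL3* at 0.08 with offsets for length. The 2056 genes higher and 2734 lower became 525 to 3932 and 1177 to 3929 when a library was left out. Both upper ends were reached without PC9 replicate 2 (3932 and 3929), and both lower ends without PC9OR replicate 1 (525 and 1177), with 527 and 1191 without PC9OR replicate 2. Where 1 library was left in a line, its spread was taken from the other line. Of the 8 genes, 0 to 2 were then higher and 1 to 5 lower, beside 0 and 3 with all libraries, and only *NF1* stayed lower in all 4 of these fits. Offsets for length called 1 of the 8 higher (*RASA1*), and offsets for length and GC content called 5 lower. The cause of these changes was not tested. The stricter threshold, an adjusted p under 0.001 beside more than 2-fold change, left 0 genes higher and 0 lower by edgeR, and 0 of the 8 were lower. At more than 2-fold and an unadjusted p under 0.05 the counts were 967, 1718 and 1, and DESeq2's Wald test at the stricter threshold called 497, 1238 and 1. The *NRAS* share of the RAS pair differed by 2.80 percentage points with expected counts in place of FPKM, and the FPKM shares differed, with a library left out, by 7.05 to 9.47 (*NRAS*), -6.61 to 5.57 (*BRAF*) and -9.70 to -6.98 (*MAP2K1*) points. Same-numbered libraries deviated from their line's mean with a correlation of 0.092 over genes, in 2 pairs, and the labels state no pairing. With the replicate block, 2593 genes were higher and 2946 lower, with 0 and 4 of the 8, adding *ARAF* (log2 fold change -0.58, adjusted p = 0.0266 by edgeR). *BRAF*, the least abundant of the 8, had at least 10.2 CPM in every library, far above the floor of 3 counts.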
